A study of Mus musculus with 18 samples.

Results

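Wild-type cells that were aggregated in suspension without added cytokines were followed from day 2 to day 6 of culture, a comparison of 4 of the 18 libraries of the series over 25239 listed genes. The 2 groups are the 2 libraries of wild-type aggregates labelled no cytokines, day 2, and the 2 libraries of wild-type aggregates labelled no cytokines, day 6. All 4 derive from the mouse embryonic stem cell line E14Tg2a, which had first been turned into epiblast-like cells (EpiLCs, a formative pluripotent state) with Activin A and Fgf and then placed in a serum-replacement medium. The cytokines that were left out are Bmp4, Bmp8a, SCF, LIF and EGF, which promote primordial germ cell-like cells (PGCLCs) in the same medium, and the aggregates were collected whole, with no sorting. TKO aggregates of the same days and medium, grown from a clone in which the open reading frames of Tet1, Tet2 and Tet3 had been deleted, serve as a second time course of 2 libraries a day, and wild-type EpiLCs (2 libraries) give the starting level.

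Epiblast cells that receive no Bmp, Nodal or Wnt signal tend to enter the neural lineage. There, neural progenitors form a Sox2-positive epithelium, and proneural basic helix-loop-helix factors such as Neurog2 start neurogenesis by switching on Notch ligands, which hold neighbouring cells as progenitors through the Hes genes. Cells that escape this brake leave the cell cycle and build the cytoskeleton, axon and synapses of a neuron. Position in the neural tube is set by Bmp and Wnt ligands from the dorsal roof plate, by Sonic hedgehog from the ventral floor plate, and along the body axis by Otx, Engrailed and Hox genes.

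The libraries held 15223241 and 22405817 counts at day 2 and 33893720 and 13195593 counts at day 6, within the range of 11286050 to 41257861 over all 18 libraries. Between 18.32% and 31.3% of these counts lay on Rn45s, the ribosomal RNA precursor. Values below are counts divided by a size factor for each library (normalised counts), given as replicate 1 and replicate 2 of each day. The 2 libraries of day 6 differed from each other more than those of any other condition: the variance between replicates was 169.9 times that of counting noise at day 6 and 61.14 times at day 2, against a smallest value of 11.16 in TKO aggregates of day 6. The study describes the replicates as biological and the labels do not say whether they came from separate cultures. The p-values below therefore rest on a spread between libraries, which the fit shares over all 18 libraries of the series. The other groups in that fit differed less than the day 6 pair, and a fit of only the 4 libraries called fewer genes.

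A large part of the transcriptome moved between day 2 and day 6. Of 16582 genes tested, 3394 were higher and 3149 were lower at day 6 at an adjusted p below 0.05 (edgeR quasi-likelihood test, Benjamini-Hochberg adjustment over all genes tested), which is 20.5% and 19% of them. Adding a log2 fold change beyond 2, that is 4-fold, left 1411 genes higher (8.51%) and 999 genes lower (6.02%). "Rose" and "fell" below mean an adjusted p below 0.05, so that 20.5% and 19% are the all-gene shares beside which list counts stand. Errors on log2 fold changes were derived from each fold change and its test statistic in that edgeR fit. They are approximate, and rest on a spread shared over all 18 libraries rather than on the 2 libraries of each day alone. The median log2 fold change over all genes was 0.008, and the 4 libraries did not overlap between days for 10184 genes (61.4%). Of the calls, 765 higher and 629 lower genes remained called whichever of the 4 libraries was left out. In whole aggregates, fewer cells of a type and less RNA per cell cannot be told apart, and this holds for every change described here.

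**Figure D1:**
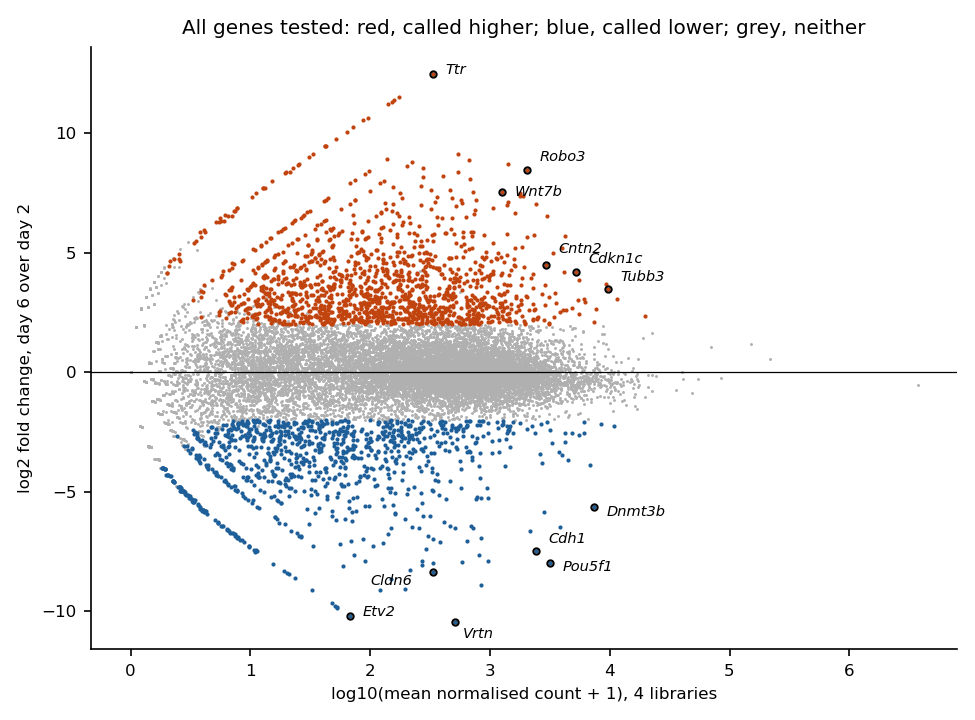
Each point is 1 of the 16582 genes tested, placed by its mean level over the 4 libraries (log10 of normalised counts plus 1, horizontal axis) and its log2 fold change from day 2 to day 6 (vertical axis). Red points mark the 1411 genes called higher and blue points the 999 genes called lower; both clouds reach beyond 8 on the log2 scale.

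The 12 largest rises were of several kinds. Among them, Tlx1, a homeobox gene of hindbrain and dorsal spinal cord neurons, was at 0 and 0 at day 2, then 429.8 and 125 at day 6. Evx1os, the antisense transcript beside the interneuron gene Evx1, was at 0 and 0 at day 2, then 447 and 184 at day 6. These genes went from no count in either day 2 library to a clear level in both day 6 libraries, so that the changes are given as lower bounds against a floor of 3 counts per library: at least 106-fold and 120.2-fold higher. The noncoding genes Lhx1os (at least 114-fold), 2900092D14Rik (133-fold), Pantr1 (412-fold) and Mir99ahg (53.8-fold) were also among the 12, as were Pmfbp1 (66.0-fold), the protocadherin Pcdhb5 (38.7-fold) and the adhesion receptor Vcam1 (105-fold). The remaining members, Ttr, a thyroid hormone carrier made by the choroid plexus, and Mlc1, a membrane protein of astroglia, were uneven at day 6, with Ttr at 5.44 and 1331 and Mlc1 at 24.5 and 354.

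By the number of counts gained, other genes stood first. Sox11, a transcription factor of immature neurons, went from 7386 and 5214 at day 2 to 44450 and 21710 at day 6. Tubb3, the neuron-specific beta-tubulin, went from 1238 and 1879 at day 2 to 17310 and 18370 at day 6, and Tuba1a, its alpha-tubulin partner, from 10560 and 9415 at day 2 to 25150 and 30380 at day 6. Tubb2b (3.71 ± 0.27), the intermediate filament Vim (3.05 ± 0.42) and the microtubule protein Map1b (1.66 ± 0.31, and 1.06 without day 6 replicate 1) completed the 6 largest rises in CPM (share of the library), all past the test. The 6 largest falls on that scale were the chaperones Hsp90ab1 (-0.88 ± 0.22, and -0.56 without day 6 replicate 1) and Npm1 (-1.55 ± 0.22), the glycolytic enzyme Pkm (-0.73 ± 0.21), the actin crosslinker Flna (-1.40 ± 0.24), the DNA methyltransferase Dnmt3b (-5.64 ± 0.33) and the glucose transporter Slc2a1 (-2.26 ± 0.42).

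**Figure D2:**
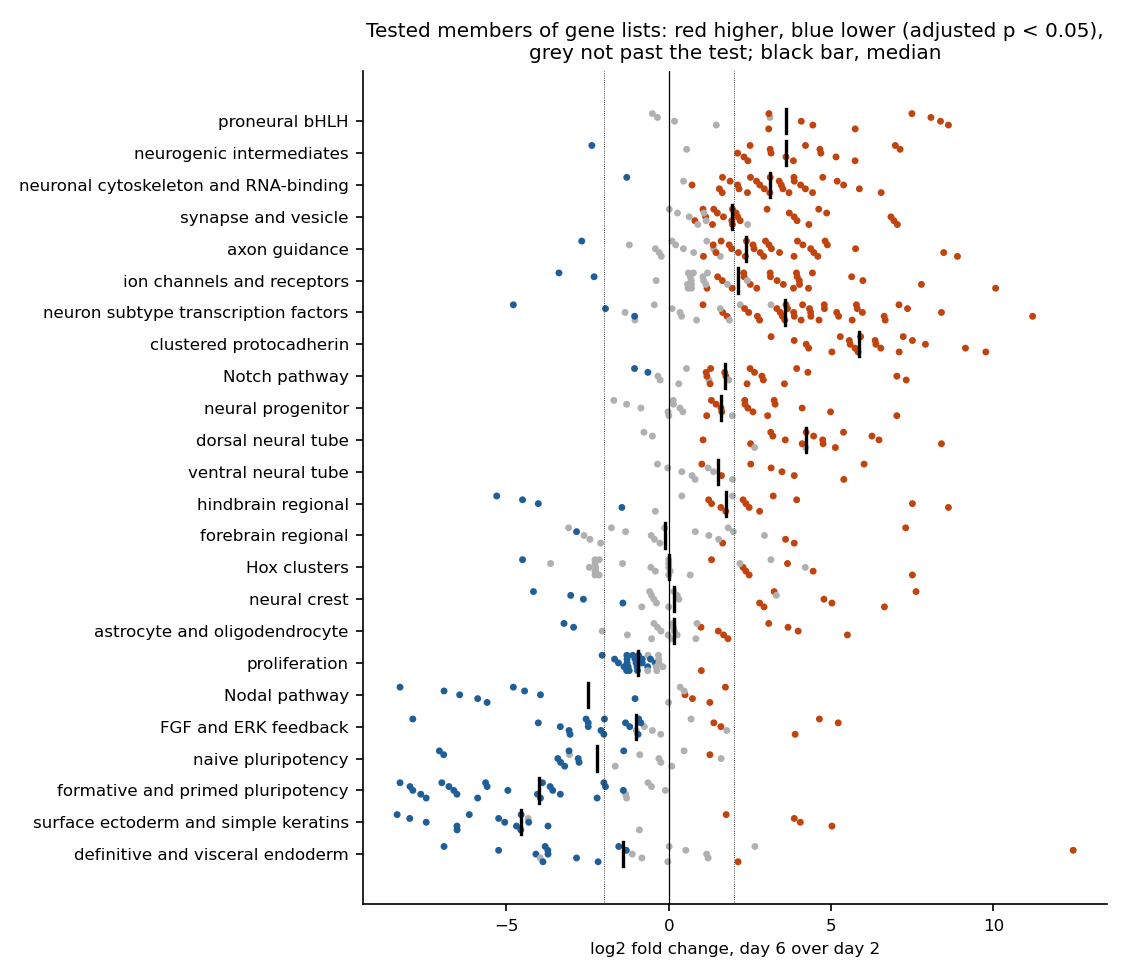
Log2 fold change from day 2 to day 6 of every tested member of 24 gene lists (horizontal axis), with a list per row; red points rose, blue points fell, grey points did not pass the test, black bars are list medians and dotted lines mark 2 and -2. Lists of neurogenesis and neurons lie to the right, with medians of 3.12 for the neuronal cytoskeleton and 3.60 for proneural factors, and those of pluripotency and simple epithelium lie to the left, with medians of -3.998 and -4.56.

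Proneural factors, which commit progenitors to neurogenesis, came on between the days. Of 14 tested genes of this list, 9 rose and none fell (2 fell without day 6 replicate 2), and all 9 were called. Neurog2 had 3.90 and 5.44 at day 2, then 796 and 1912 at day 6 (log2 fold change 8.08 ± 0.60, adjusted p = 2.91e-07). It was therefore near 0 in each day 2 library and far above that in each day 6 library. Nhlh2 (9.75 and 27.2 at day 2, then 4625 and 2506 at day 6) and Nhlh1 (81.9 and 65.3 at day 2, then 2195 and 1093 at day 6), which mark newly born neurons, rose by 7.49 ± 0.49 and 4.44 ± 0.48 on the log2 scale. Neurog1, a factor of dorsal sensory lineages, rose by 5.74 ± 0.78, or by 3.78 without day 6 replicate 1, and lay at 838 in replicate 1 and 124 in replicate 2. Neurod1 did not pass the test (95.5 and 85.5 at day 2, then 415 and 96.1 at day 6, adjusted p = 0.0984). It did without day 6 replicate 2 (2.14, adjusted p = 0.00651), and was at 0.04 without day 6 replicate 1. Atoh1, the factor of rhombic lip and dorsal-most interneurons, was at 4.08 and 802 at day 6, so its rise rests on replicate 2: its log2 fold change was 8.62 with all libraries and 2.02 (adjusted p = 0.198) without that library.

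Promoters of 6 risers are shown to let the E-boxes be seen, since proneural proteins bind such sites. Elavl3 is from the neuronal cytoskeleton and RNA-binding list, and the others are from the proneural, Notch and neurogenic lists. Each sequence runs 5′ to 3′ on the strand of the gene, from 250 bases before to 50 bases after the start that RefSeq gives in build GRCm38.p6, and capitals mark the letters CAGCTG or CAGATG on either strand.
Dll3, chr7:28301736-28302035, minus strand: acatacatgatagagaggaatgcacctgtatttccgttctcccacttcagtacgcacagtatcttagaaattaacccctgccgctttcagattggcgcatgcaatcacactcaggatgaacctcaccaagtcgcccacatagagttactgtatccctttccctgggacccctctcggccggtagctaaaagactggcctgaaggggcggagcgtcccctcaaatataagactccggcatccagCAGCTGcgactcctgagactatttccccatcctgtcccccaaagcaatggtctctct
Hes6, chr1:91413989-91414288, minus strand: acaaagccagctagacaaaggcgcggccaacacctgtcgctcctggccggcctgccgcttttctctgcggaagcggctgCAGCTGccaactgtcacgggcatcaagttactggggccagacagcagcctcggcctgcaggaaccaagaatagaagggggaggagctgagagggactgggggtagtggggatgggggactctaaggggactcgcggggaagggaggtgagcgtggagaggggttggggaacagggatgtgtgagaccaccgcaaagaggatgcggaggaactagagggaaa
Nhlh1, chr1:172057547-172057846, minus strand: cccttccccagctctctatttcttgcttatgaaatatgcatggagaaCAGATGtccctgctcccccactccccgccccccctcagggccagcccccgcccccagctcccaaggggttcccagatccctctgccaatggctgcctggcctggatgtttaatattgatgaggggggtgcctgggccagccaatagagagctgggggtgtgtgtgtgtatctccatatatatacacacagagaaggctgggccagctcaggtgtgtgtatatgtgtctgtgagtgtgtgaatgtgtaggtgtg
Nhlh2, chr3:102009895-102010194, plus strand: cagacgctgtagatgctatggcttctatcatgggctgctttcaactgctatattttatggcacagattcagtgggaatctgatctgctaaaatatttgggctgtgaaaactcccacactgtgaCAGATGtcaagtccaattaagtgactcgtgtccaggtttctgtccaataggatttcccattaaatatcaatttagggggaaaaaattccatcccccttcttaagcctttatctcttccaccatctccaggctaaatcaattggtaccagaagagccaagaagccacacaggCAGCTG
Elavl3, chr9:22051974-22052273, minus strand: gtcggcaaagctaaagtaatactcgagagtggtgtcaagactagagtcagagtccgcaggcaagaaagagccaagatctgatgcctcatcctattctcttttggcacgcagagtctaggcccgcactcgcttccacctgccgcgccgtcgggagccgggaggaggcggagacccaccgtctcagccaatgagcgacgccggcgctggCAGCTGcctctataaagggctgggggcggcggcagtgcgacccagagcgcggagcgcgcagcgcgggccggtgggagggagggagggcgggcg
Srrm4, chr5:116591768-116592067, minus strand: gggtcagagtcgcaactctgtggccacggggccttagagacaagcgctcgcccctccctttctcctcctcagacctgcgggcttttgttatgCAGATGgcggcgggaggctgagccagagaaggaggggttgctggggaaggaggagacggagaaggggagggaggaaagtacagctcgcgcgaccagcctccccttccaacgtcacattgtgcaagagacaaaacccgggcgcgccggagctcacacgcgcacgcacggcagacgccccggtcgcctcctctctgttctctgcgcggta

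Dll3, Hes6 and Elavl3 carry CAGCTG, Nhlh1 and Srrm4 carry CAGATG, and Nhlh2 carries both. Of the 54 tested genes on the proneural, Notch and neurogenic lists, 41 had a promoter in the table and 14 of them (34.1%) held either motif. Over all tested genes with a promoter it was 3297 of 12819 (25.7%). Among the genes called higher, 319 of 1042 promoters (30.6%) held either motif, and among those called lower 188 of 727 (25.9%). CAGCTG stood at 21.7% of called-higher promoters and at 15.8% of all, while CAGATG stood in 128 of 1042 and 1532 of 12819. These shares are descriptions of the letters in a 300-base window and were not tested.

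Notch signalling components rose with the proneural factors. Of 24 tested members, 16 rose and 2 fell (none without day 2 replicate 1 or day 6 replicate 1), with a median log2 fold change of 1.74. The ligand Dll1 had 276 and 246 at day 2, then 4848 and 3424 at day 6 (log2 fold change 3.94 ± 0.30, adjusted p = 2.02e-07). Dll3, which acts inside the signalling cell, had 147 and 85.5 at day 2, then 1695 and 1128 at day 6 (log2 fold change 3.56 ± 0.35, adjusted p = 2.19e-06). The receptor Notch1 went from 955 and 663 at day 2 to 8181 and 4373 at day 6 (log2 fold change 2.91 ± 0.30, adjusted p = 3.90e-06). Among targets of the pathway, Hes5 was at 38.02 and 33.4 at day 2, then 4013 and 5607 at day 6 (log2 fold change 7.03 ± 0.35, adjusted p = 5.67e-09) and the feedback inhibitor Nrarp at 194 and 91.7 at day 2, then 3097 and 2610 at day 6 (log2 fold change 4.29 ± 0.30, adjusted p = 9.10e-08). Neither pair of libraries overlapped for any of these genes. Hes6, which opposes Hes1 and favours differentiation, rose by 2.64 ± 0.22, and the ligand-like Dner, which had the highest value of the list, rose by 7.32 ± 0.71. Hes1, a Notch target that also serves non-neural cells, had 617 and 486 at day 2, then 179 and 374 at day 6, a log2 fold change of -1.05 ± 0.32 that did not pass without day 2 replicate 1 (-0.90, adjusted p = 0.0956) or without day 6 replicate 1 (-0.60, adjusted p = 0.149).

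Genes of the transition from progenitor to neuron rose almost as a block, 15 of 17 tested, with a median of 3.61. Myt1, a zinc-finger repressor of progenitor genes, had 27.3 and 12.4 at day 2, then 3838 and 1788 at day 6 (log2 fold change 7.13 ± 0.44, adjusted p = 2.48e-07). Scrt2 and Scrt1, Snail-type factors of newborn neurons, rose by 6.98 ± 0.46 and 5.74 ± 0.56. Ebf2 (5.15 ± 0.65), Ebf3 (4.66 ± 0.45), St18 (4.69 ± 0.65), Insm1 (3.12 ± 0.38) and Gadd45g (3.61 ± 0.38) rose too. Cdkn1c, the inhibitor that takes neuronal precursors out of the cycle, had 562 and 472 at day 2, then 10550 and 9202 at day 6 (log2 fold change 4.21 ± 0.31, adjusted p = 1.48e-07). Btg2 did not pass the test (log2 fold change 0.55, adjusted p = 0.165). The gene that fell was Eomes, which marks cortical intermediate progenitors but also the primitive streak. It was at 100.4 and 175 at day 2, then 15.4 and 45.2 at day 6 (log2 fold change -2.37 ± 0.37, adjusted p = 0.000133).

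**Figure D3:**
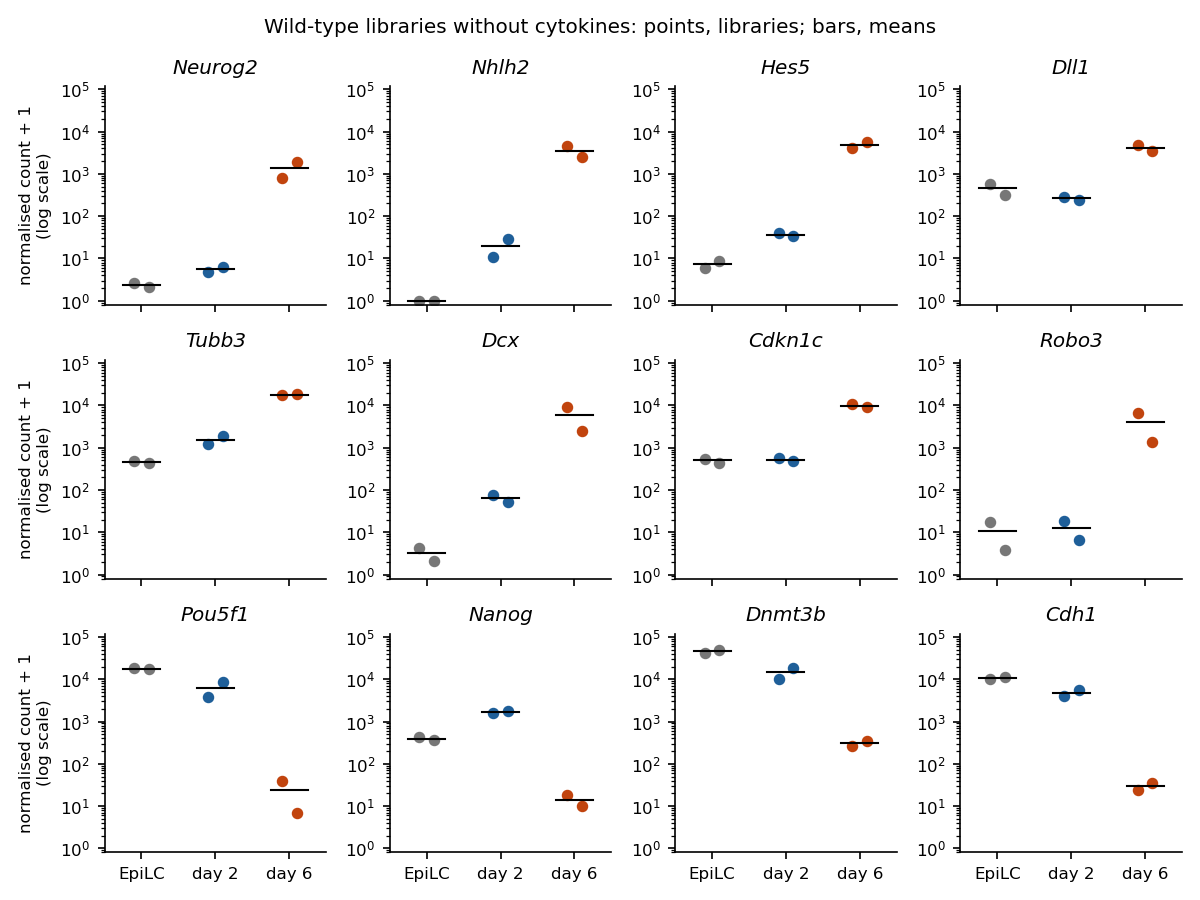
Normalised counts plus 1 (log axis) of 12 genes in wild-type EpiLCs and in aggregates at day 2 and day 6; points are libraries and bars are means of 2. Neurog2, Nhlh2, Hes5, Dll1, Tubb3, Dcx, Cdkn1c and Robo3 are higher in both day 6 libraries than in both day 2 libraries, while Pou5f1, Nanog, Dnmt3b and Cdh1 are lower in both.

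The neuronal cytoskeleton and RNA-binding list, used to check for neurons, rose in 28 of 30 tested members, and its median log2 fold change was 3.12. Dcx, the microtubule protein of migrating neurons, had 74.1 and 50.5 at day 2, then 9404 and 2530 at day 6 (log2 fold change 6.54 ± 0.66, adjusted p = 2.54e-06). Mapt, the axonal protein tau, had 24.4 and 22.5 at day 2, then 2281 and 559 at day 6 (log2 fold change 5.87 ± 0.56, adjusted p = 1.56e-06). Elavl3, an RNA-binding protein of postmitotic neurons, had 119.9 and 158 at day 2, then 3896 and 2329 at day 6 (log2 fold change 4.43 ± 0.28, adjusted p = 4.04e-08). All 3 rose in both libraries but lay higher in replicate 1, as did most of the list, whose median log2 ratio of day 6 replicate 1 to replicate 2 was 1.36. Neurofilament genes Nefl (214 and 199 at day 2, then 11320 and 4243 at day 6) and Nefm (89.7 and 69.1 at day 2, then 3295 and 1087 at day 6) and the dendritic protein Map2 (363 and 464 at day 2, then 10640 and 5203 at day 6) followed the same course. Rbfox3, the antigen NeuN of mature neurons, reached 423 and 98.4 (log2 fold change 4.06 ± 0.61, adjusted p = 0.000108, and 2.65 without day 6 replicate 1). Nefh, of thick mature axons, fell from 101 and 82.3 at day 2 to 54.9 and 17.4 at day 6, a change of -1.29 ± 0.41 that did not pass without day 2 replicate 1 (-1.17, adjusted p = 0.0954), day 2 replicate 2 (-1.41, adjusted p = 0.0522) or day 6 replicate 2 (-0.80, adjusted p = 0.099). Prph, of peripheral neurons, lay at 54.6 and 106 at day 2, then 215 and 6.95 at day 6 and did not pass the test (adjusted p = 0.681). It moved to -3.57 without day 6 replicate 1 (adjusted p = 0.00141) and 1.34 without day 6 replicate 2 (adjusted p = 0.0221).

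Genes for finding targets, for synapses and for excitability rose in more cases than they fell. On the axon guidance list 28 of 40 tested genes rose and 1 fell, and the falls numbered 2 without day 6 replicate 1 and 3 without day 6 replicate 2. Its median log2 fold change of 2.38 was 1.52 without day 6 replicate 1. Robo3, which lets commissural axons cross the midline, had 17.6 and 5.44 at day 2, then 6747 and 1394 at day 6 (log2 fold change 8.47 ± 0.80, adjusted p = 1.39e-06). Dcc, the netrin receptor of the same axons, had 105 and 61.4 at day 2, then 6338 and 2886 at day 6 (log2 fold change 5.76 ± 0.44, adjusted p = 3.68e-07). Cntn2, their surface protein TAG-1, had 248 and 244 at day 2, then 7583 and 3657 at day 6 (log2 fold change 4.47 ± 0.28, adjusted p = 4.04e-08). All 3 commissural genes were higher in both day 6 libraries. Chl1, an adhesion molecule of growing axons, was at 2.92 and 2.33 at day 2, then 2353 and 309 at day 6. By the mean of its libraries it was at least 507-fold higher at day 6 (adjusted p = 1.31e-05), a bound that rests mostly on replicate 1. Unc5b, a netrin receptor also found in endothelium, was the member that fell, from 872 and 1174 at day 2 to 118 and 219 at day 6 (log2 fold change -2.68 ± 0.26, adjusted p = 2.01e-06).

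Of 30 tested synaptic genes 23 rose and none fell, with a median of 1.96. The median was 1.04 and 1 gene fell without day 6 replicate 1. Snap25, of the vesicle fusion machinery, had 23.4 and 24.9 at day 2, then 477 and 177 at day 6 (log2 fold change 3.71 ± 0.63, adjusted p = 0.000414). The adhesion gene Nrxn3 had 8.77 and 2.33 at day 2, then 1090 and 189.9 at day 6 (log2 fold change 6.85 ± 0.87, adjusted p = 3.29e-05). Nlgn1, a postsynaptic partner of neurexins, was at 0.975 and 0.777 at day 2, then 215 and 48.6 at day 6 (at least 50.2-fold higher at day 6, adjusted p = 0.000225). The count of risers on this list was 16 to 18 without day 2 replicate 1, day 2 replicate 2 or day 6 replicate 1, and 27 without day 6 replicate 2. Ion channels and receptors gave 23 rises and 2 falls (1 without day 2 replicate 2) of 40 tested. The sodium channel Scn3a was at 13.7 and 14.8 at day 2, then 1543 and 324 at day 6 (log2 fold change 5.98 ± 0.69, adjusted p = 9.43e-06). The AMPA receptor subunit Gria2 was at 3.90 and 0.777 at day 2, then 973 and 73.0 at day 6 (log2 fold change 7.78 ± 1.20, adjusted p = 0.000278, and 4.93 without day 6 replicate 1). The nicotinic subunit Chrnb2 was at 49.7 and 70.7 at day 2, then 1297 and 616 at day 6 (log2 fold change 3.94 ± 0.40, adjusted p = 2.55e-06). The potassium channel Kcnj3 fell, from 437 and 372 at day 2 to 42.2 and 37.1 at day 6 (log2 fold change -3.38 ± 0.28, adjusted p = 4.63e-07).

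Transmitter genes of more than 1 kind appeared. Slc17a6, the vesicular glutamate transporter of hindbrain and spinal cord, had 25.3 and 24.9 at day 2, then 826 and 302 at day 6 (log2 fold change 4.44 ± 0.64, adjusted p = 0.000176). Gad1, the enzyme that makes GABA, had 14.6 and 5.44 at day 2, then 375 and 111 at day 6 (log2 fold change 4.59 ± 0.63, adjusted p = 4.48e-05). Slc6a5, the glycine transporter of inhibitory neurons, was at 0 and 1.55 at day 2, then 238 and 56.7 at day 6 (at least 56.1-fold higher at day 6, adjusted p = 7.79e-05). Th, the enzyme of catecholamine synthesis, was at 1.95 and 0 at day 2, then 231 and 64.8 at day 6 (at least 56.2-fold higher at day 6, adjusted p = 2.10e-05), while its partner for noradrenaline, Dbh, was at 13.6 and 2.32 at day 6 and was too low to be tested. Of the 17 tested genes of this list 10 rose and 1 fell, and the fall, of the noradrenaline transporter Slc6a2, had an adjusted p of 0.0456. Slc6a2 was at 5.85 and 3.88 at day 2, then 0.907 and 0 at day 6 and did not pass when any of the 4 libraries was left out (adjusted p = 0.162, 0.0886, 0.0863 and 0.117 without day 2 replicate 1 and 2 and day 6 replicate 1 and 2). Slc17a6, Gad1, Slc6a5 and Th were each higher in both day 6 libraries, and in replicate 1 more than in replicate 2.

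The clustered protocadherins, whose alternative promoters give single neurons different surface identities, differed by family. All 20 tested Pcdhb genes rose and were called, with a median log2 fold change of 5.87, or 5.13 with 11 of them set at their lower bounds. Pcdhb16 was at 2.92 and 0.777 at day 2, then 543 and 155 at day 6 (at least 133-fold higher at day 6, adjusted p = 3.41e-05), and Pcdhb17 at 4.87 and 2.33 at day 2, then 539.5 and 149 at day 6 (log2 fold change 6.53 ± 0.89, adjusted p = 4.34e-05). Of 8 tested Pcdha genes 7 were called higher, with a median of 3.52, and of 22 Pcdhg genes 8 rose and 1 was called, with a median of 1.3. The 28 called protocadherins made up much of the 73 genes called higher on chromosome 18, of 455 tested there. These genes share sequence, and some of them share exons, so that the split of reads between neighbours is uncertain. Reads mapped to more than 1 place had not been counted.

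On a list of splicing factors and related genes that differ between epithelia and neurons, 12 of 18 tested genes rose and 4 fell. Esrp1, a splicing factor of epithelia, fell from 461 and 858 at day 2 to 2.72 and 2.32 at day 6 (log2 fold change -7.98 ± 0.45, adjusted p = 1.32e-08). Its paralogue Esrp2 had 41.9 and 23.3 at day 2, then 23.1 and 9.26 at day 6 and did not pass with all libraries (adjusted p = 0.0759), but passed without day 2 replicate 2 (-1.26, adjusted p = 0.0466) or day 6 replicate 1 (-1.82, adjusted p = 0.0154). Ptbp1, which represses neuronal exons, went from 8907 and 7607 at day 2 to 2046 and 3098 at day 6 (log2 fold change -1.73 ± 0.23, adjusted p = 3.50e-05), and Rest, the repressor of neuronal genes, from 1956 and 1531 at day 2 to 549 and 712 at day 6 (log2 fold change -1.51 ± 0.18, adjusted p = 1.44e-05). In the other direction Srrm4, which drives neuronal microexons, rose from 204 and 146 at day 2 to 2047 and 1151 at day 6 (log2 fold change 3.15 ± 0.36, adjusted p = 8.58e-06). Nova2, Rbfox1 and Srrm3 rose by 3.52 ± 0.40, 3.40 ± 0.62 and 3.04 ± 0.52. The neuronal subunits of the BAF chromatin remodeller moved likewise. Actl6b was at 0.975 and 0 at day 2, then 248 and 111 at day 6 (at least 68.3-fold higher at day 6, adjusted p = 4.57e-05). Dpf3 was at 2.92 and 2.33 at day 2, then 493 and 112 at day 6 (at least 115-fold higher at day 6, adjusted p = 9.43e-06). Ss18l1 was higher by 2.33 ± 0.38 (1.53 without day 6 replicate 1), while Ss18, of the progenitor complex, fell by 0.71 ± 0.17. Actl6a, the progenitor counterpart of Actl6b, lay at 1992 and 2692 at day 2, then 1484 and 2194 at day 6 and did not pass (adjusted p = 0.13), but passed without day 6 replicate 2 (-0.72, adjusted p = 0.00877).

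Progenitor genes were already expressed at day 2 and split into those that rose and those that did not. Sox2, the core factor of neural progenitors and pluripotent cells alike, had 3258 and 2196 at day 2, then 2875 and 2757 at day 6 (log2 fold change 0.01 ± 0.29, adjusted p = 1). Sox1, the earliest factor restricted to neuroectoderm, had 3293 and 1498 at day 2, then 1204 and 1516 at day 6 (adjusted p = 0.114). Neither passed with all libraries, and Sox1 passed without day 2 replicate 2 (-1.31, adjusted p = 0.0404). Fabp7, of radial glia, had 248 and 156 at day 2, then 3309 and 9819 at day 6 (log2 fold change 4.99 ± 0.49, adjusted p = 2.16e-06). Sox9, of the same cells, had 165 and 97.9 at day 2, then 1438 and 1121 at day 6 (log2 fold change 3.25 ± 0.55, adjusted p = 0.000258). Pax6, of dorsal and intermediate progenitors, had 262 and 144 at day 2, then 1562 and 954 at day 6 (log2 fold change 2.60 ± 0.42, adjusted p = 0.00019). Of the 25 tested members 15 rose and none fell (1 fell without day 2 replicate 2 or day 6 replicate 1 and 2 without day 6 replicate 2), with a median of 1.61. Among genes of glia proper, Nfia, which opens gliogenesis, had 16.6 and 6.21 at day 2, then 696 and 351 at day 6 (log2 fold change 5.50 ± 0.59, adjusted p = 4.95e-06) and the glutamate transporter Slc1a2 had 233 and 138 at day 2, then 2751 and 2117 at day 6 (log2 fold change 3.67 ± 0.37, adjusted p = 2.39e-06). In all, 8 of 24 tested members of the glial list rose (4 without day 2 replicate 1, 3 without day 2 replicate 2 and 5 without day 6 replicate 2) and 2 fell (4 without day 6 replicate 2). The oligodendrocyte factor Olig2 lay at 30.2 and 23.3 at day 2, then 10.4 and 34.7 at day 6 (adjusted p = 0.748).

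Transcription factors of hindbrain and spinal cord neuron types rose. Of 49 tested subtype factors 35 rose and 3 fell (5 without day 6 replicate 1), with a median of 3.58. Lbx1, of dorsal inhibitory interneurons, had 5.85 and 10.1 at day 2, then 1332 and 994 at day 6 (log2 fold change 7.09 ± 0.66, adjusted p = 1.19e-06). Pou3f3, a broad factor of differentiating neurons, had 29.2 and 15.5 at day 2, then 4205 and 3260 at day 6 (log2 fold change 7.36 ± 0.54, adjusted p = 1.58e-07), and its paralogue Pou3f2 had 114 and 41.2 at day 2, then 5362 and 2562 at day 6 (log2 fold change 5.65 ± 0.52, adjusted p = 1.10e-06). These were high in both day 6 libraries. Lhx1 and Lhx5, of dorsal and intermediate interneurons, rose by 6.64 ± 0.74 and 4.34 ± 0.45, Evx1 by 5.97 ± 0.64 and Pax2 by 4.12 ± 0.59. Foxp1 and Pou3f1 were among the falls, by log2 fold changes of -1.05 ± 0.19 and -1.95 ± 0.28.

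Along the body axis, several genes of the hindbrain moved. Hoxa2, which patterns rhombomeres, had 228 and 149 at day 2, then 1056 and 841 at day 6 (log2 fold change 2.29 ± 0.39, adjusted p = 0.000283). Hoxa3 had 46.8 and 28.0 at day 2, then 245 and 182 at day 6 (log2 fold change 2.48 ± 0.55, adjusted p = 0.00214). Egr2, of rhombomeres 3 and 5, fell from 401 and 91.7 at day 2 to 9.52 and 1.158 at day 6 (log2 fold change -5.30 ± 0.79, adjusted p = 9.60e-05). Of 19 tested genes of the hindbrain list 12 rose and 4 fell. Over all genes tested 20.5% rose and 19% fell. Of 30 tested Hox genes 7 rose and 1 fell, with a median of 0 (-1.46 without day 6 replicate 1), or -0.35 with 4 genes at their bounds. The rises numbered 3 without day 2 replicate 2 and 4 without day 6 replicate 1. Hoxb4 reached 91.6 and 20.8 (log2 fold change 3.66 ± 0.78, adjusted p = 0.00217, and 2.19 without day 6 replicate 1). Hoxb5 and Hoxb6 lay at 1.36 or below in all 4 libraries. Of 21 tested forebrain genes 4 rose and 1 fell, and their median of -0.13 ran from -0.52 to 1.32 when 1 library was left out. Gsx1, on the forebrain list but also a factor of dorsal hindbrain and spinal progenitors, rose from 0.975 and 3.11 at day 2 to 217 and 519 at day 6 (log2 fold change 7.30 ± 1.05, adjusted p = 7.01e-05).

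The 2 day 6 libraries differed in genes of the dorsoventral axis, and the genes given here were chosen for their large ratios. Replicate 2 was rich in dorsal and roof plate genes: Wnt1 was at 4.99 in replicate 1 and 976 in replicate 2, Wnt3a at 0.907 and 835, Msx1 at 12.7 and 1182, Zic1 at 68.5 and 3910, and Ttr at 5.44 and 1331. Replicate 1 was rich in ventral and motor-type genes: Nkx6-1 was at 1382 and 62.5, Isl1 at 378 and 22.0, Tbx20 at 813 and 13.9, and Otp at 2805 and 88.0. The median log2 ratio of replicate 1 to replicate 2 was -4.34 over the 19 dorsal genes, -4.94 over the 13 choroid plexus and roof plate genes and 1.83 over the 16 ventral genes. It was 1.92 over the 14 blood and endothelial genes, against 0.077 over all genes tested. Other genes with a mean of at least 200 and a large ratio were Peg13 (2050 and 4.63), Plagl1 (912 and 52.1), Scn9a (638 and 33.6) and Dlc1 (582 and 31.3) on the side of replicate 1, and Sost (4.99 and 692), Rspo1 (6.35 and 1231) and Rspo3 (1.81 and 416) on that of replicate 2. These ratios compare 2 libraries and carry no test, and what sets the libraries apart was not tested.

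**Figure D4:**
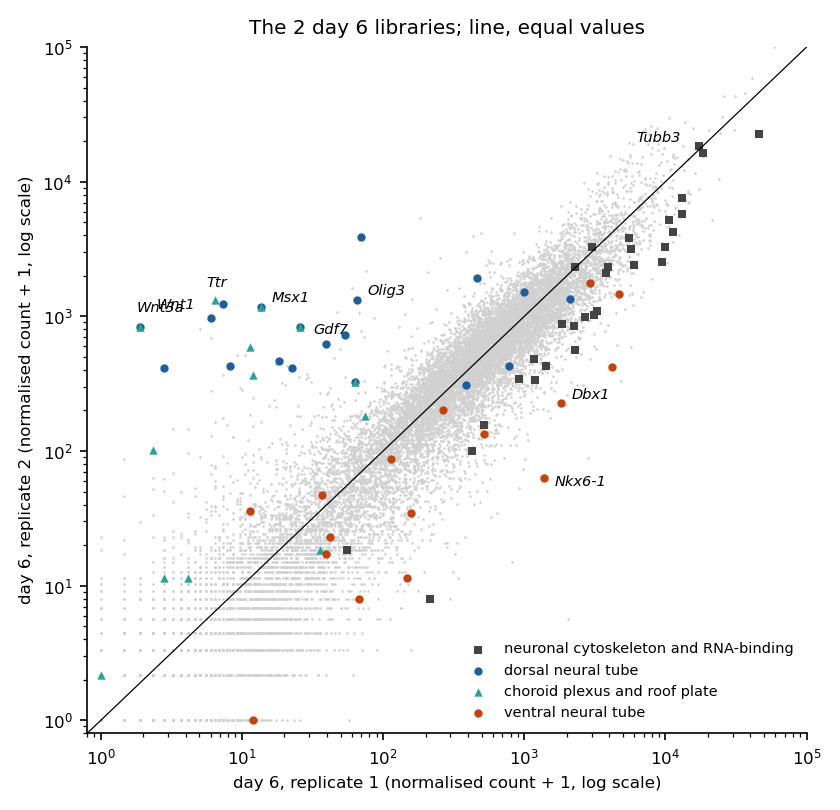
Normalised counts plus 1 (log axes) of day 6 replicate 1 (horizontal) against day 6 replicate 2 (vertical) for tested members of 4 lists, with the line of equal values. Genes of the dorsal neural tube (blue) and of choroid plexus and roof plate (teal) lie mostly above the line, with Wnt3a at 0.907 and 835 before 1 was added, ventral genes (orange) lie mostly below it, and neuronal cytoskeleton genes (squares) lie close under it.

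Counts of dorsal and ventral risers depended on which library was kept. Of 19 tested dorsal genes 15 rose and none fell with all 4 libraries, and without day 6 replicate 2 it was 7 rises and 4 falls. Without day 2 replicate 2 it was 6 rises. Wnt3a, for example, moved from 6.48 ± 1.69 to -2.20, Msx1 from 4.76 ± 1.22 to -0.80 and Zic1 from 4.11 ± 1.18 to -0.77 when day 6 replicate 2 was left out. The same 3 genes missed the threshold without day 2 replicate 2, at log2 fold changes of 5.85, 4.73 and 3.29 and adjusted p of 0.0718, 0.0534 and 0.103. Of 16 tested ventral genes 8 rose and none fell, and without day 6 replicate 1 it was 4 rises and 2 falls, without day 2 replicate 1 it was 5 rises and without day 2 replicate 2 it was 4. Nkx6-1 then moved from 2.53 ± 0.91 to -1.01, Isl1 from 3.44 ± 0.94 to 0.24 and Tbx20 from 5.81 ± 1.30 to 0.91. Nkx6-1 and Isl1 also missed the threshold without day 2 replicate 1 (adjusted p = 0.136 and 0.0692) and without day 2 replicate 2 (adjusted p = 0.165 and 0.0545). The choroid plexus and roof plate list went from 6 rises and 1 fall of 13 to 3 rises and 4 falls without day 6 replicate 2 and to 3 rises without day 2 replicate 2.

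Some dorsal and ventral genes rose whichever library was left out. Draxin, a guidance protein of dorsal neurons, had 68.2 and 56.7 at day 2, then 2115 and 1333 at day 6 (log2 fold change 4.74 ± 0.34, adjusted p = 1.32e-07). Pax7 and Pax3, of dorsal progenitors, had 41.9 and 11.7 at day 2, then 772 and 424 at day 6 (log2 fold change 4.46 ± 0.59, adjusted p = 3.41e-05) and 167 and 38.1 at day 2, then 999 and 1510 at day 6 (log2 fold change 3.59 ± 0.59, adjusted p = 0.000283). Msx3, confined to the dorsal neural tube, had 37.0 and 18.6 at day 2, then 459 and 1920 at day 6 (log2 fold change 5.38 ± 0.69, adjusted p = 2.66e-05). On the ventral side Shh, the ligand of the floor plate, was at 2.92 and 0 at day 2, then 156 and 33.6 at day 6 (at least 36.1-fold higher at day 6, adjusted p = 0.000645). Dbx1, of intermediate progenitors, was at 39.0 and 9.32 at day 2, then 1814 and 225 at day 6 (log2 fold change 5.39 ± 0.92, adjusted p = 0.000753, and 3.20 without day 6 replicate 1). Nkx6-2 was at 28.3 and 28.0 at day 2, then 518 and 132 at day 6 (log2 fold change 3.49 ± 0.59, adjusted p = 0.000283, and 2.18 without day 6 replicate 1). The floor plate factor Foxa2 lay at 46.8 and 29.5 at day 2, then 66.6 and 6.95 at day 6 (adjusted p = 0.991, and 0.0466 at -2.47 on the log2 scale without day 6 replicate 1), and Lmx1a, of the roof plate and midbrain floor, was at 0.975 and 0 at day 2, then 62.6 and 325 at day 6 (at least 73.8-fold higher at day 6, adjusted p = 0.000199).

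Ligands, receptors and targets of the patterning pathways moved in both directions. Of 32 tested Wnt pathway genes 13 rose and 7 fell. Wnt7b, a ligand of neural progenitors and neurons, had 14.6 and 11.7 at day 2, then 2507 and 2527 at day 6 (log2 fold change 7.54 ± 0.39, adjusted p = 7.54e-09). Wnt7a had 5.85 and 9.32 at day 2, then 765 and 149 at day 6 (log2 fold change 5.83 ± 0.77, adjusted p = 4.60e-05). Wnt8a, a ligand of the epiblast and early hindbrain region, had 1296 and 2066 at day 2, then 0.907 and 9.26 at day 6 (log2 fold change -8.88 ± 0.96, adjusted p = 5.25e-06). The nuclear factors Lef1, Tcf7 and Tcf7l1 fell, with log2 fold changes of -2.21 ± 0.42, -2.70 ± 0.30 and -1.88 ± 0.29, while Axin2, a general target of the pathway, was at 583 and 3077 at day 6 against 1241 and 951 at day 2 (adjusted p = 0.294). Axin2 moved to 1.45 without day 6 replicate 1 (adjusted p = 0.00175) and -0.97 without day 6 replicate 2 (adjusted p = 0.0283). Without day 6 replicate 1 the Wnt counts were 17 rises and 10 falls, and without day 6 replicate 2 they were 10 and 10.

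Bmp pathway genes rose in 13 of 23 tested cases and fell in 1, with 5 rises without day 2 replicate 2 and 8 rises and 3 falls without day 6 replicate 2, and 2 falls without day 6 replicate 1. Id4, a target with a role in neural progenitors, had 46.8 and 17.1 at day 2, then 1113 and 653 at day 6 (log2 fold change 4.77 ± 0.57, adjusted p = 1.28e-05). The antagonist Nog had 26.3 and 10.9 at day 2, then 166 and 189.9 at day 6 (log2 fold change 3.23 ± 0.56, adjusted p = 0.000322). Gdf7, a roof plate ligand, had 6.82 and 3.88 at day 2, then 24.9 and 828 at day 6 (log2 fold change 6.26 ± 1.19, adjusted p = 0.000689, and 2.16 without day 6 replicate 2). Id1 was at 255 and 221 at day 2, then 383 and 3000 at day 6, so that most of its rise of 2.78 ± 0.63 lay in day 6 replicate 2, without which it was 0.63 (adjusted p = 0.162). Fst, the Activin and Bmp antagonist, fell from 1867 and 1770 at day 2 to 35.8 and 103 at day 6 (log2 fold change -4.83 ± 0.67, adjusted p = 5.07e-05). Of 14 tested Hedgehog genes 5 rose (3 without day 2 replicate 2) and 2 fell. The coreceptors Boc and Gas1 rose by 3.19 ± 0.49 and 2.13 ± 0.49 (1.26 for Gas1 without day 6 replicate 2). The coreceptor Cdon had 880.2 and 617 at day 2, then 207 and 2131 at day 6 and did not pass (adjusted p = 0.457). It moved to 1.47 without day 6 replicate 1 (adjusted p = 7.97e-05) and -1.91 without day 6 replicate 2 (adjusted p = 1.48e-05).

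Fgf and Nodal genes fell more often than they rose. Of 27 tested Fgf and feedback genes 5 rose and 16 fell. Fgf5, the ligand that marks the formative epiblast, had 522 and 548 at day 2, then 3.17 and 0 at day 6 (log2 fold change -7.88 ± 0.77, adjusted p = 1.99e-06). Its day 6 replicate 2 was at 0, so the fit without replicate 1 gives no size for the fall. Spry2, Spry4, Etv5 and Il17rd, induced by Fgf signalling, fell, with log2 fold changes of -2.09 ± 0.31, -2.48 ± 0.44, -3.34 ± 0.46 and -2.55 ± 0.27. The receptors moved apart: Fgfr3, of neural progenitors, rose from 93.6 and 94.8 at day 2 to 4184 and 3086 at day 6 (log2 fold change 5.22 ± 0.34, adjusted p = 5.28e-08). Fgfr1 fell by 0.86 ± 0.16. Of 16 Nodal pathway genes 9 fell and 4 rose (2 when either day 2 library or day 6 replicate 1 was left out). Nodal itself had 308 and 203 at day 2, then 7.25 and 1.158 at day 6 (log2 fold change -5.59 ± 0.45, adjusted p = 3.20e-07). Its antagonist Lefty1 had 615 and 235 at day 2, then 1.81 and 0 at day 6 (log2 fold change -8.28 ± 0.72, adjusted p = 6.74e-07). Its effector Foxh1 had 1168 and 1569 at day 2, then 20.9 and 8.11 at day 6 (log2 fold change -6.44 ± 0.36, adjusted p = 1.32e-08). The receptor Acvr2a and the signal transducer Smad3 rose, by 1.75 ± 0.28 and 1.27 ± 0.26.

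The degrading enzymes of retinoic acid moved apart. Cyp26a1, which clears retinoic acid in the early embryo, had 673 and 493 at day 2, then 1.81 and 6.95 at day 6 (log2 fold change -7.37 ± 0.65, adjusted p = 7.83e-07). Cyp26c1 had 1171 and 349 at day 2, then 5.44 and 5.79 at day 6 (log2 fold change -7.10 ± 0.77, adjusted p = 7.64e-06). Cyp26b1, the enzyme of the later hindbrain, had 35.1 and 7.77 at day 2, then 5879 and 1209 at day 6 (log2 fold change 7.38 ± 0.82, adjusted p = 6.82e-06). The receptor Rarg fell from 765 and 1002 at day 2 to 41.7 and 34.7 at day 6 (log2 fold change -4.55 ± 0.24, adjusted p = 7.54e-09). The binding protein Crabp2 rose from 2512 and 1684 at day 2 to 7122 and 8221 at day 6 (log2 fold change 1.83 ± 0.31, adjusted p = 0.000274). Of 22 tested genes of the list 7 rose, 4 without day 6 replicate 1, and 6 fell.

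Pluripotency genes fell between day 2 and day 6. Pou5f1, the Oct4 gene, had 18550 and 17080 in EpiLCs, 3786 and 8819 at day 2, then 39.0 and 5.79 at day 6 (log2 fold change -7.97 ± 0.59, adjusted p = 1.56e-07). Nanog had 422 and 359 in EpiLCs, 1577 and 1782 at day 2, then 16.8 and 9.26 at day 6 (log2 fold change -6.93 ± 0.37, adjusted p = 9.13e-09). Utf1 and L1td1, other genes of the pluripotent state, fell, with log2 fold changes of -6.99 ± 0.48 and -7.64 ± 0.41. The fall of Utf1 was larger without day 6 replicate 1. Lin28a, the inhibitor of let-7 processing, went from 11740 and 13790 at day 2 to 1114 and 659 at day 6 (log2 fold change -3.89 ± 0.33, adjusted p = 5.61e-07). Of 28 tested formative and primed genes 23 fell and none rose, with a median of -3.998, or -3.92 with 1 gene at its lower bound. That count was 23 to 25 whichever library was left out. The naive list had 9 falls and 1 rise (2 without day 6 replicate 2) among 18 tested genes, with a median of -2.21, or -1.52 with 2 genes at their bounds. Klf4 and Esrrb of this list lay at 40.9 and 54.4 at day 2, then 43.1 and 35.9 at day 6 and 89.7 and 76.9 at day 2, then 140.1 and 32.4 at day 6 without passing the test (adjusted p = 0.599 and 0.935). Eras and Vrtn, on the list of largest falls, were at least 161-fold and 420.5-fold lower.

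Epithelial genes fell as well. Cdh1, E-cadherin, had 4104 and 5535 at day 2, then 23.6 and 34.7 at day 6 (log2 fold change -7.47 ± 0.28, adjusted p = 6.23e-10). Epcam had 1048 and 1779 at day 2, then 4.53 and 35.9 at day 6 (log2 fold change -6.52 ± 0.55, adjusted p = 5.11e-07). Cldn6, a tight junction protein of early epithelia, was at 505 and 835 at day 2, then 1.36 and 3.47 at day 6 (at least 277-fold lower at day 6, adjusted p = 1.32e-08). The simple keratins Krt8 and Krt19 fell, with log2 fold changes of -5.24 ± 0.67 and -5.05 ± 0.35. Of 19 tested genes of surface ectoderm and simple epithelium 13 fell and 4 rose (2 without day 2 replicate 2). Tfap2a, which also marks dorsal interneurons, rose from 9.75 and 11.7 at day 2 to 317 and 418 at day 6 (log2 fold change 5.03 ± 0.40, adjusted p = 2.73e-07). Zeb1, a repressor of E-cadherin, rose from 425 and 183 at day 2 to 2229 and 1624 at day 6 (log2 fold change 2.63 ± 0.42, adjusted p = 0.00016). Basement membrane genes split, Lama5 and Lamb1 falling, with log2 fold changes of -3.79 ± 0.28 and -3.91 ± 0.32 and Lama1 rising by 3.05 ± 0.41, with 8 falls and 3 rises among 20 tested.

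Other genes among the 12 largest falls had varied roles. Etv2, a factor of blood and endothelial precursors, was at 127 and 141 at day 2, then 0 and 0 at day 6 (at least 55.3-fold lower at day 6, adjusted p = 5.74e-06). Foxi3, of placodal ectoderm, was at 190.1 and 285 at day 2, then 0 and 1.158 at day 6 (at least 98.3-fold lower at day 6, adjusted p = 3.82e-07). Casr, the calcium-sensing receptor, was at 462 and 128 at day 2, then 0.907 and 0 at day 6 (at least 122-fold lower at day 6, adjusted p = 5.14e-06). Gbp2 and Gbp2b, interferon-induced GTPases with near-identical sequences, were at least 42.9-fold and 41.4-fold lower, and Xlr and 1700013H16Rik at least 43.2-fold and 48.6-fold lower. Each of these was under 2 normalised counts in both day 6 libraries.

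Germ cell genes fell more often than they rose. Of 20 tested early PGC genes 3 rose and 9 fell, and of 22 later germline genes 2 rose and 11 fell. Dnd1, which protects germ cell transcripts, had 117 and 136 at day 2, then 15.4 and 16.2 at day 6 (log2 fold change -3.05 ± 0.48, adjusted p = 0.000163). Prdm1, the first factor of PGC fate, had 40.9 and 32.6 at day 2, then 4.99 and 1.158 at day 6 (log2 fold change -3.28 ± 0.53, adjusted p = 0.000191). Ddx4, a later germ cell helicase, had 71.2 and 52.0 at day 2, then 4.53 and 3.47 at day 6 (log2 fold change -3.88 ± 0.47, adjusted p = 1.47e-05). Mael, of the piRNA pathway, was at 18.5 and 9.32 at day 2, then 0 and 0 at day 6 (at least 5.76-fold lower at day 6, adjusted p = 7.76e-05). The early risers were Cxcr4 (4.11 ± 0.35), also a receptor of migrating neurons, Elavl2 (2.12 ± 0.33), also a neuronal RNA-binding protein, and Nanos3, at 4.87 and 2.33 at day 2, then 56.7 and 35.9 at day 6 (log2 fold change 3.66 ± 0.51, adjusted p = 4.91e-05). The later risers were Brdt, a bromodomain protein of the testis, at 5.85 and 3.88 at day 2, then 49.0 and 28.9 at day 6 (log2 fold change 2.97 ± 0.48, adjusted p = 0.000177), and Tdrd9, of the piRNA pathway. Tdrd9 was at 7.80 and 3.11 at day 2, then 42.6 and 23.2 at day 6 (log2 fold change 2.59 ± 0.61, adjusted p = 0.0034) and did not pass without day 2 replicate 2 (2.07, adjusted p = 0.0566).

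Most proliferation genes fell. Of 30 tested proliferation genes 21 fell and 1 rose, with a median log2 fold change of -0.95 that was -0.58 without day 6 replicate 1 and -1.37 without day 6 replicate 2. Mcm5, of the replicative helicase, had 6323 and 6431 at day 2, then 1357 and 2790 at day 6 (log2 fold change -1.67 ± 0.26, adjusted p = 0.000125). Ccne1, the cyclin of S phase entry, had 1274 and 1304 at day 2, then 211 and 439 at day 6 (log2 fold change -2.05 ± 0.28, adjusted p = 4.56e-05). Mki67 (8162 and 5675 at day 2, then 6242 and 4813 at day 6, adjusted p = 0.181) and Top2a (10520 and 10130 at day 2, then 7708 and 9407 at day 6, adjusted p = 0.231) did not pass the test, and E2f1 rose by 1.004 ± 0.23. The number of falls was 15 without day 6 replicate 1 and 25 without day 6 replicate 2. Among inhibitors and D cyclins, Cdkn2c rose by 3.72 ± 0.44 and Ccnd2, the cyclin of neural progenitors, from 1219 and 1097 at day 2 to 5002 and 14530 at day 6 (log2 fold change 3.03 ± 0.53, adjusted p = 0.000353). Cdkn1a lay at 1004 and 689.9 at day 2, then 642 and 918 at day 6 (adjusted p = 0.743).

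Of 17 tested genes of DNA methylation 5 rose and 7 fell. The methyltransferase Dnmt3b fell from 10240 and 18750 at day 2 to 267 and 337 at day 6 (log2 fold change -5.64 ± 0.33, adjusted p = 1.62e-08), and Dnmt1, which maintains methylation, fell by 0.59 ± 0.14. Dnmt3l, the cofactor of Dnmt3a and Dnmt3b, had 47.8 and 30.3 at day 2, then 1.81 and 0 at day 6 (log2 fold change -4.83 ± 0.81, adjusted p = 0.000249). Its day 6 replicate 2 was at 0, so the fit without replicate 1 gives no size for the fall. Dnmt3a had 3258 and 4141 at day 2, then 3752 and 3372 at day 6 (log2 fold change -0.10 ± 0.28, adjusted p = 0.804) and did not pass the test. Tet2 rose from 287 and 200.4 at day 2 to 1428 and 574 at day 6 (log2 fold change 2.00 ± 0.44, adjusted p = 0.00213, and 1.20 without day 6 replicate 1). Tet3 had 2558 and 1965 at day 2, then 5849 and 3466 at day 6 (log2 fold change 0.999 ± 0.29, adjusted p = 0.0123) and Tet1 had 2028 and 1754 at day 2, then 1304 and 595 at day 6 (log2 fold change -1.03 ± 0.31, adjusted p = 0.0165). Tet3 did not pass without day 2 replicate 2 (0.84, adjusted p = 0.113) or day 6 replicate 1 (0.57, adjusted p = 0.149). Tet1 did not pass without day 2 replicate 1 (-0.95, adjusted p = 0.0759) or day 6 replicate 2 (-0.59, adjusted p = 0.0997).

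Imprinted genes included several risers. Dlk1, a Notch-type ligand of the paternal genome, had 27.3 and 12.4 at day 2, then 1819 and 509.5 at day 6 (log2 fold change 5.86 ± 0.94, adjusted p = 0.000174). Ndn, a neuronal growth suppressor, had 629 and 552 at day 2, then 3225 and 2978 at day 6 (log2 fold change 2.35 ± 0.27, adjusted p = 9.37e-06). Rian, a maternally expressed noncoding RNA of the same domain as Dlk1, fell from 10210 and 10580 at day 2 to 3966 and 1507 at day 6 (log2 fold change -1.97 ± 0.38, adjusted p = 0.000729). Of 32 tested imprinted genes 11 rose, 5 without day 2 replicate 2, and 6 fell. Immediate early genes fell in 11 of 20 cases, Junb and Nr4a1 with log2 fold changes of -2.80 ± 0.28 and -2.79 ± 0.24. Of the chromobox genes of Polycomb complexes, Cbx7 fell from 1210 and 1383 at day 2 to 161 and 56.7 at day 6 (log2 fold change -3.56 ± 0.32, adjusted p = 8.52e-07). Cbx8 rose by 2.05 ± 0.34.

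Lists of other cell types moved in both directions. Muscle and heart genes fell in 8 of 17 tested cases and endoderm genes in 11 of 22. The contractile gene Tagln fell from 5076 and 5955 at day 2 to 35.8 and 178 at day 6 (log2 fold change -5.83 ± 0.76, adjusted p = 2.79e-05). The actin gene Acta1 fell from 1975 and 1887 at day 2 to 12.7 and 0 at day 6 (log2 fold change -7.87 ± 0.69, adjusted p = 6.83e-07). Its day 6 replicate 2 was at 0, so the fit without replicate 1 gives no size for the fall. Gata6, of primitive endoderm, had 18.5 and 16.3 at day 2, then 3.63 and 0 at day 6 (log2 fold change -2.84 ± 0.77, adjusted p = 0.0083). The same limit holds for Gata6, whose day 6 replicate 2 was also at 0. On the primitive streak and mesoderm list 4 of 26 tested genes rose (2 without day 2 replicate 2) and 5 fell (3 without day 2 replicate 1), with a median of -0.66 that ran from -0.89 to 0.29 when 1 library was left out. Its streak gene T had 65.3 and 66.0 at day 2, then 4.99 and 1.158 at day 6 (log2 fold change -4.16 ± 1.09, adjusted p = 0.00693). Hbb-bh1, an embryonic globin, was at 0 and 1.55 at day 2, then 73.9 and 18.5 at day 6 (at least 17.6-fold higher at day 6, adjusted p = 0.00265). It was the 1 riser of the 14 tested blood and endothelial genes, against 2 rises without day 2 replicate 1 or day 6 replicate 2. Tek, a receptor of endothelium, and Cd34, of endothelium and blood precursors, fell, with log2 fold changes of -4.39 ± 0.63 and -2.28 ± 0.52 (-3.62 for Cd34 without day 6 replicate 1), and 4 genes fell without day 6 replicate 1. Cranial placode genes gave 6 rises and 4 falls among 15 tested, the rises including Pax2 and Neurog1, which the neuron lists also hold, and Dlx3 (4.05 ± 0.71). Neural crest genes gave 7 rises and 4 falls (2 without day 2 replicate 1) among 21 tested, and the summed level of the list went from 1652 and 1274 at day 2 to 9529 and 7778 at day 6 while its median log2 fold change was 0.16 (0 to 0.29 when 1 library was left out). A large part of the day 6 sums lay on Ednrb, also expressed by neural progenitors. Ednrb had 46.8 and 16.3 at day 2, then 3896 and 2474 at day 6 (log2 fold change 6.64 ± 0.47, adjusted p = 1.18e-07). Tfap2b, a factor of crest and sympathetic neurons, had 8.77 and 0.777 at day 2, then 283 and 1566 at day 6 (log2 fold change 7.62 ± 0.91, adjusted p = 2.84e-05). Erbb3, of crest-derived glia, had 269 and 442 at day 2, then 19.5 and 22.0 at day 6 (log2 fold change -4.17 ± 0.30, adjusted p = 1.44e-07). The crest factors Sox10, Foxd3 and Snai2 did not pass the test, at log2 fold changes of 0.26, -0.53 and 0.31 (adjusted p = 0.819, 0.565 and 0.786). Foxd3 was at -4.2 without day 6 replicate 1. Ets1 of this list fell (-3.02, adjusted p = 0.000601).

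Integrated stress response and hypoxia genes moved in both directions, while no p53 target and no ribosomal protein or elongation gene rose. Over all genes tested 20.5% rose and 19% fell. Of 15 tested p53 targets 5 fell, among them Perp (-3.52 ± 0.55) and Pmaip1 (-2.78 ± 0.39), which act in cell death, and the falls numbered 5 to 7 whichever library was left out. Of 18 integrated stress response genes 2 rose and 6 fell, or 1 to 3 and 3 to 8 when 1 library was left out. Of 25 tested hypoxia and glycolysis genes 6 rose and 6 fell, which became 1 rise and 10 falls without day 6 replicate 1 and 13 rises and 4 falls without day 6 replicate 2. Without either day 2 library it was 3 rises, and the median log2 ratio of replicate 1 to replicate 2 was 1.63. Vegfa, a target of hypoxia, was at 902 and 621 at day 2, then 3463 and 888 at day 6, and its rise of 1.48 ± 0.51 became 0.18 (adjusted p = 0.796) without day 6 replicate 1 and missed the threshold without day 2 replicate 1 (1.74, adjusted p = 0.0666) or day 2 replicate 2 (1.26, adjusted p = 0.18). Ribosomal protein and elongation genes fell in 1 of 17 cases, in 17 of 17 without day 6 replicate 2, and their median log2 ratio of replicate 1 to replicate 2 was -1.17. The part of these library differences in the other results was not tested.

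Gene length and promoter composition of the called genes were set beside those of all tested genes. The median gene length of genes called higher was 38470 bases, against 20632 for genes called lower and 21727 for all tested genes. The median ratio of observed to expected CpG in the promoter was 0.644 for genes called higher, 0.496 for genes called lower and 0.731 for all, and long noncoding RNAs made up 6.53%, 5.02% and 5.16%. On the X chromosome 5.97% of tested genes were called higher and 9.19% lower. These values carry no test.

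In TKO aggregates few genes were called between the same days. At the limits used here 50 genes were called higher and 6 lower at day 6 of TKO culture. Of these, 4 and 3 were also called in wild-type cells. The fit shares its spread with the wild-type day 6 pair, which differed most, so few calls do not show little change. Zscan4d and Gm21761, given below, were higher in both TKO day 6 libraries than in both TKO day 2 libraries. The paper reports that TKO cells diverged further late in culture, with or without cytokines, when whole transcriptomes were compared. The difference between the wild-type and TKO changes was tested directly, with libraries that the 2 time courses do not share. It was above 2 on the log2 scale for 751 genes (4.53%) and below -2 for 822 genes (4.96%). Dcx was at 7.26 and 6.01 at day 2, then 5.38 and 0 at day 6 in TKO cells, a difference of 7.71 ± 1.71, adjusted p = 0.00565 from its wild-type change. Hes5 was at 6.23 and 1.20 at day 2, then 6.46 and 6.31 at day 6 (6.32 ± 0.98, adjusted p = 0.000431). For Pou5f1 the TKO values were 9806 and 10800 at day 2, then 7197 and 9948 at day 6 (-7.71 ± 0.69, adjusted p = 4.16e-06), and for Cdh1 7405 and 7725 at day 2, then 4899 and 5504 at day 6 (-6.94 ± 0.33, adjusted p = 2.20e-08). Of the 30 tested genes of the neuronal cytoskeleton list 19 were above 2 and 1 below -2 in this test, and of the 28 formative and primed genes none was above and 19 were below.

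Where TKO libraries were near 0 the difference could carry a large error. Neurog2 was at 0 and 1.20 at day 2, then 1.08 and 0 at day 6 in TKO aggregates, and its difference did not pass the test (8.03 ± 3.19, adjusted p = 0.098), which does not show that the changes were alike. Reads on the targeted genes were not absent from TKO libraries, where Tet1 was at 1937 and 1200 at day 2, then 998 and 737 at day 6, Tet2 at 355 and 405 at day 2, then 274 and 304 at day 6 and Tet3 at 165 and 238 at day 2, then 252 and 237 at day 6; counts over whole genes do not show which exons were deleted. The TKO libraries also held a photoreceptor transcript, with Gnat1 at 539 and 1059 at day 2, then 729 and 1007 at day 6, against 2.92 or less in the 4 wild-type libraries, and the part of this difference in the test above was not tested.

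**Figure D5:**
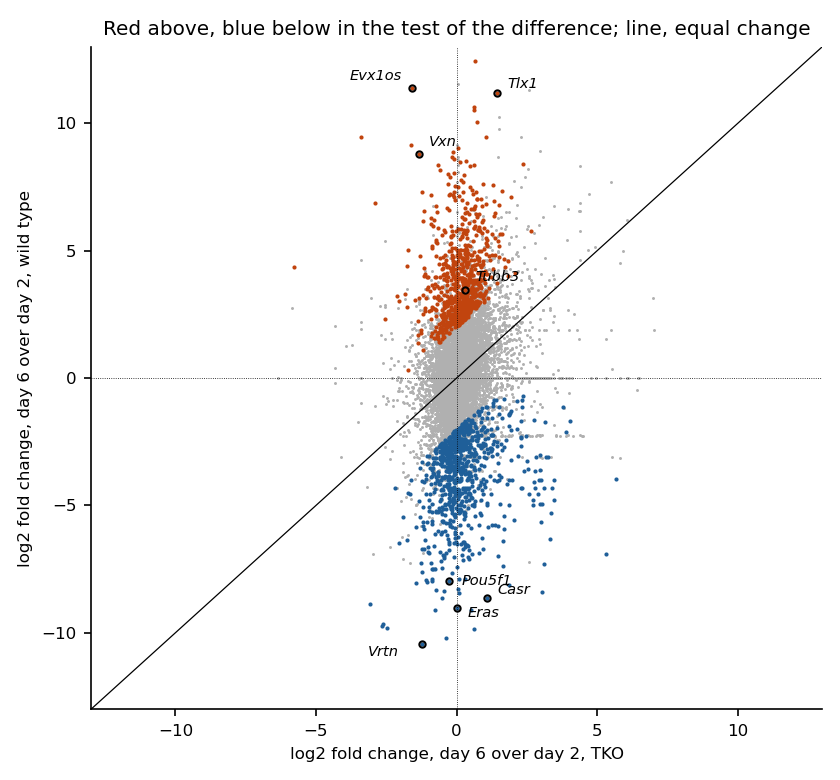
Log2 fold change from day 2 to day 6 without cytokines in wild-type cells (vertical axis) against that in TKO cells (horizontal axis) for the genes tested, with the line of equal change. Red points are the 751 genes above and blue points the 822 genes below in the test of the difference; most of them spread along the wild-type axis and stay near 0 on the TKO axis.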

How the data were processed

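Total RNA of whole aggregates was depleted of ribosomal RNA and sequenced on a NextSeq. Per the file headers and the labels, the deposited values are raw counts per gene: the authors trimmed reads with Trim Galore 0.5.0 (cutadapt 1.16), aligned them to mm10 with STAR 2.7.1a and counted exons of the refGene annotation with featureCounts (Subread 1.5.2), with no strand option and without reads that mapped to several places or genes. Overlapping and antisense genes can therefore share reads. The table held 25239 genes and 33 command-line rows, which were left out. Groups came from the sample titles.

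Counts of all 18 libraries were fitted in edgeR 4.0.16 (R 4.3.3) as 9 group means, with TMM scaling, the filterByExpr filter and the quasi-likelihood test. Adjustment was by Benjamini-Hochberg over 16582 genes. Genes were called when the adjusted p was under 0.05 and the fold change past 2 on the log2 scale. Normalised counts are counts over DESeq2 1.42.0 size factors. Where both libraries of a group held 3 counts or fewer, the fold is a lower bound against 3 counts per library. Such a bound uses the mean of the other group's libraries, so where these differ it rests mostly on the higher one. The fit was tested on simulated data of 14950 genes, where it called 26% of genes changed by a log2 fold of 1 at an adjusted p below 0.05 and 99% at 2, and 0.0407% of unchanged genes. The simulation gave every gene and every group the same dispersion, and changed only genes with a mean of at least 50 normalised counts. The real day 6 libraries differed more than those of other groups, so these shares need not hold for the real data. The precision of each value is limited by 2 libraries a day and by totals of 13195593 to 33893720 counts. Named genes are the 12 largest rises and falls among called genes with a mean of at least 50 normalised counts, the largest differences from TKO cells, the largest ratios between the day 6 libraries, the largest changes in CPM, the Tet genes and members of 55 gene lists, of which those with results of interest to the comparison are described. The members and lists were chosen with earlier results of these data known. Symbols were matched to RefSeq (GRCm38.p6) for 25037 of 25239 genes. Alternatives covered DESeq2, other scalings, filters, subsets of libraries, a replicate block and each library left out. Some genes that these rules choose are not reported here.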

Additional observations from a re-analysis of the deposited data

Results flagged for a closer look

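Every result of this kind comes from the test of whether the day 2 to day 6 change without cytokines differs between wild-type and TKO cells, on the log2 scale and with 2 libraries in each of the 4 groups. The difference was above 2 for 751 genes and below -2 for 822 genes. Among genes with a mean of at least 50 normalised counts, 5 of the 6 highest values were 12.97 for Evx1os, 11.8 for Ttr, 10.14 for Vxn, 10.01 for Mlc1 and 9.78 for Tlx1. The 6 lowest were -10.4 for Gm21761, -9.74 for Casr, -9.64 for Zscan4d, -9.19 for Vrtn, -9.06 for Eras and -9.03 for Cyp26a1. These fitted values depend on the prior count where a group is at 0, as the wild-type day 2 libraries are for Evx1os, Ttr, Mlc1 and Tlx1. Zscan4d was at 5.85 and 11.7 at day 2, then 0 and 0 at day 6 in wild-type cells and at 120.4 and 129 at day 2, then 1078 and 1405 at day 6 in TKO cells, and Gm21761 at 11.7 and 23.3 at day 2, then 0 and 0 at day 6 and at 178 and 249.9 at day 2, then 1475 and 2159 at day 6. Vxn, a neuronal differentiation gene, was at 0.975 and 0.777 at day 2, then 499 and 394 at day 6 in wild-type cells and at 2.08 and 1.20 at day 2, then 1.08 and 0 at day 6 in TKO cells.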

How the results depend on the processing

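Genes called higher numbered 1411 and genes called lower 999. Under the alternative tools, scalings, filters and sets of libraries the counts ran from 994 (fit of only the 4 libraries) to 1521 (library size alone) higher and from 624 (fit of only the 4 libraries) to 1030 (no filter) lower, and the fit of 4 libraries estimates the spread from fewer samples. Library size alone moved the median of all genes by 0.119. A log2 fold change beyond 1 gave 2534 higher and 1984 lower. Leaving out 1 library gave 1049 to 1815 higher and 924 to 1180 lower. For the difference from TKO cells, 751 above and 822 below, a limit of 1 gave 1270 and 1396, an adjusted p below 0.01 gave 437 above, and leaving out 1 library gave 516 to 1160 above, the last without wild-type day 6 replicate 2, and 660 to 1026 below.

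The labels share only replicate numbers. Differences between replicates 1 and 2 at day 2 and day 6 correlated over 12323 genes at r = 0.218 in the single pair of groups, as a description. With a replicate block the fit called 1371 higher and 1002 lower, or 1090 and 717 in the 4 libraries alone.

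Of named genes, 20 changed direction when 1 library was left out, and the cause was not tested. For 11 of them the fit of all libraries or a fit in the other direction passed the threshold, and their log2 fold changes over the libraries left out ran from -0.97 to 1.45 (Axin2), -1.91 to 1.47 (Cdon), -2.90 to 1.30 (Dlc1), -0.80 to 5.75 (Msx1), -1.01 to 3.44 (Nkx6-1), -3.57 to 1.34 (Prph), -3.38 to 4.20 (Rspo1), -4.11 to 3.65 (Rspo3), -0.87 to 6.24 (Sost), -2.20 to 7.49 (Wnt3a) and -0.77 to 5.92 (Zic1). For the other 9, neither of these passed. Among these Wnt1 ran from -2.38 to 9.03, Peg13 from -4.41 to 8.65 and Plagl1 from -1.26 to 5.61, and each passed at its highest value (adjusted p = 0.0445, 0.0224 and 0.01) without day 2 replicate 1. The difference of Ttr from TKO cells missed the threshold under DESeq2, in the fit of 8 libraries, with the replicate block and in 7 of the 8 fits without 1 library (4.91 to 12.2). That of Mlc1 missed it in the fit of 8 libraries and without either wild-type day 2 library or TKO day 6 replicate 1 (9.48 to 10.01). In the simulated data, with 2 libraries a day, changes of about 2-fold were found less often than changes of 4-fold.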
